A study of Zea mays with 12 samples.

Results

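Maize SWEET4c, SWEET4a and SWEET4b, which encode sugar transporters of the SWEET family, and sut1, which encodes a sucrose transporter, are 4 of the 39423 gene models whose transcript levels were measured at the base of the developing kernel. They were chosen by gene identifier (GRMZM2G137954, GRMZM2G000812, GRMZM2G144581 and GRMZM2G034302, in that order), and each was among the 24213 gene models with a level of at least 1 FPKM in at least 2 libraries, which were tested. FPKM is the number of sequenced fragments scaled to the length of the gene model and to the number of mapped fragments in the library. The SWEET4 names follow the published naming of the maize family, since the RefSeq gene records of these 3 identifiers carry no SWEET symbol, while the record of the fourth carries sut1. RNA came from wild-type kernels of the inbred line W22, on ears of field-grown plants. The basal endosperm transfer layer (BETL), the outermost endosperm facing the mother plant, and the maternal transfer zone (MATZ), the maternal tissue it faces, were cut apart from frozen kernels at 8, 14 and 20 days after pollination (DAP). Each of the 6 groups (BETL at 8, 14 and 20 DAP, and MATZ at the same ages) had 2 libraries, which makes 12. Nothing in the labels tells whether a group's libraries were made from separate ears or plants, so p-values measure the spread between these libraries, which may be technical.

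No vascular or cell connection joins the mother plant to the maize endosperm, so sugar leaves the maternal cells into the wall space and is taken up again by the endosperm. SWEET proteins let sugars cross a membrane down their gradient without using energy, and members of the SWEET4 group carry hexoses. In maize SWEET4c is known as a gene that kernel filling depends on, acting in the basal endosperm with the cell wall invertase Miniature1 (mn1), which splits sucrose into glucose and fructose. The protein of sut1 instead moves sucrose together with protons, and is best known for loading sucrose into the phloem of leaves.

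The 2 tissues could be checked against genes named for them. Of 14 genes known from the basal endosperm (betl, bap and meg genes, tcrr-1 and mn1), 14, 12 and 11 were higher in BETL at 8, 14 and 20 DAP by the test described below. Of all tested genes 2.16%, 4.63% and 4.23% were. These basal genes were also present in MATZ, with sums given beside the results. Of 5 tested MADS-box genes known from ovule tissue (zag and zmm genes and bde1), 1, 3 and 4 were lower in BETL. Of all tested genes 5.31%, 4.38% and 6.38% were. The 7 listed genes of this kind were also present in BETL. At 8 DAP they summed to 346 and 313 FPKM there, against 617 and 578 FPKM in MATZ. The libraries totalled 731024 to 987477 FPKM and listed 12609 to 21309 gene models above 0. The values give no read counts, so the depth behind a level is unknown. If the smallest regular step between low values in a library is taken as 1 fragment, which is an inference, every value of SWEET4a and SWEET4b in BETL rests on fewer than 10 fragments. On the same inference SWEET4b in MATZ rests on about 8.6 to 45.6 fragments, and sut1 in MATZ at 8 DAP in replicate 2 on about 5.5.

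The 3 SWEET4 genes lie close together on chromosome 5 in the coordinates of the deposited table, whose genome build is not given in the sources used here. SWEET4a spans 126816126 to 126819003 on the minus strand, SWEET4c 127464171 to 127467664 on the plus strand and SWEET4b 127602043 to 127605592 on the plus strand. Between SWEET4c and SWEET4b, 134378 bp apart, the table lists no other gene model. Between SWEET4a and SWEET4c, 645167 bp apart, it lists 2, and both have a mean of 0 FPKM in each group. The sut1 gene lies on chromosome 1, from 15069803 to 15075147 on the minus strand. How the authors assigned reads that match more than 1 SWEET4 gene is not stated, so the division of reads among these relatives is uncertain.

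**Figure D1:**
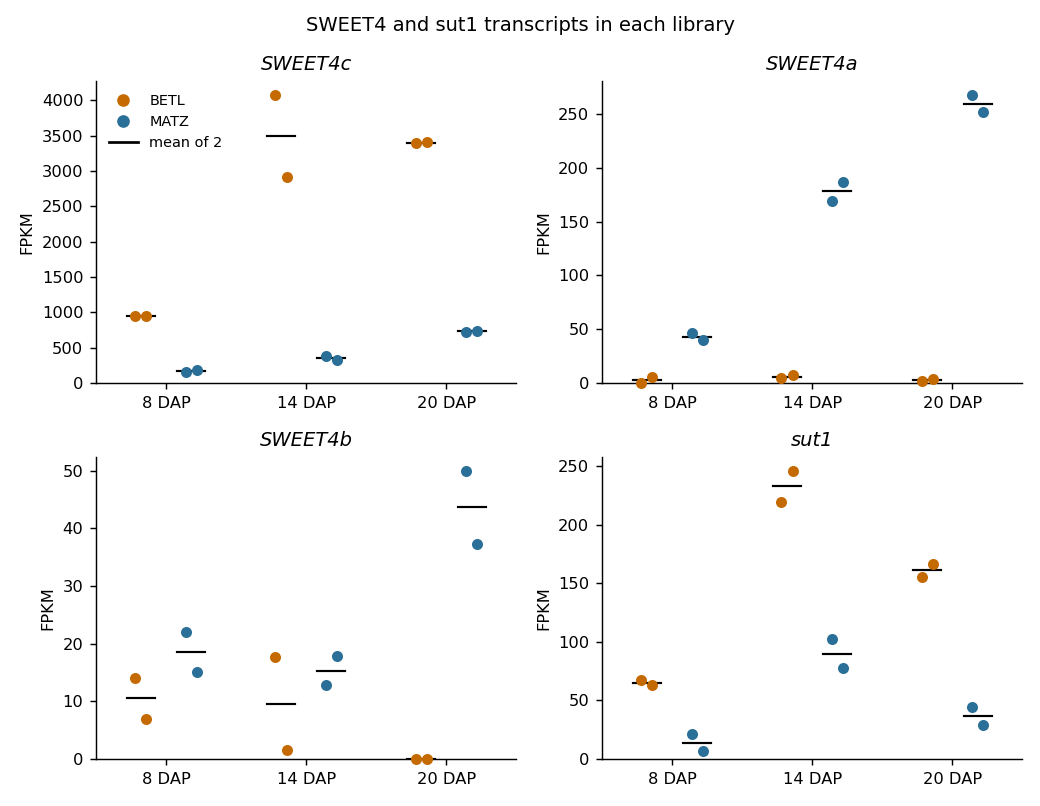
FPKM (linear axes that start at 0 and differ between panels) of SWEET4c, SWEET4a, SWEET4b and sut1 in BETL and MATZ at 8, 14 and 20 days after pollination; points are single libraries and short lines the means of 2 libraries. SWEET4c and sut1 lie higher in BETL and SWEET4a higher in MATZ at every age, and SWEET4b is listed at 0 in both BETL libraries at 20 DAP.

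SWEET4c was the most abundant of the 4 genes in all 12 libraries, and it was higher in BETL than in MATZ at every age. At 8 DAP it stood at 945 and 956 FPKM in the BETL libraries and at 162 and 188 FPKM in the MATZ libraries. At 14 DAP the levels were 4074.5 and 2909 FPKM in BETL and 389 and 326 FPKM in MATZ. At 20 DAP they were 3397 and 3405 FPKM in BETL and 729.7 and 740.5 FPKM in MATZ. The lowest BETL library lay above the highest MATZ library even across ages. By level, SWEET4c ranked 82 and 84 among all gene models in the 8 DAP libraries of BETL, 23 and 29 in those of 14 DAP and 25 in both of 20 DAP. In MATZ its ranks were 637 and 625 (8 DAP), 252 and 325 (14 DAP), then 119 and 107 (20 DAP), so its level was high in the MATZ libraries too. Whether maternal cells made these transcripts was not tested.

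Tests were made with limma on log2(FPKM + 1) over all 12 libraries, and a gene was called when its p-value, adjusted by Benjamini-Hochberg over the 24213 genes tested, was under 0.05. SWEET4c averaged 951 ± 7.59 FPKM in BETL and 175 ± 18.7 FPKM in MATZ at 8 DAP (SD, n = 2 each), a 5.43-fold difference (log2 difference 2.44 ± 0.18 SE, limma adjusted p = 5.34e-05). The means at 14 DAP were 3492 ± 824 FPKM in BETL and 357 ± 44.2 FPKM in MATZ, 9.77-fold apart (3.27 ± 0.18, limma adjusted p = 3.12e-05). Those at 20 DAP were 3401 ± 6.27 FPKM in BETL and 735 ± 7.61 FPKM in MATZ, 4.63-fold apart (2.21 ± 0.18, limma adjusted p = 9.63e-05). These calls stayed when any 1 library was left out. They were lost at 8 DAP (adjusted p = 0.109) and 14 DAP (adjusted p = 0.107), but not at 20 DAP, when only the 4 libraries of one age were fitted.

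SWEET4a had the opposite pattern and was almost absent from BETL. It stood at 0 and 5.77 FPKM in BETL and 46.2 and 39.8 FPKM in MATZ at 8 DAP. The values at 14 DAP were 4.68 and 7.39 FPKM in BETL and 169 and 187 FPKM in MATZ. Those at 20 DAP were 2.08 and 3.93 FPKM in BETL and 267 and 252 FPKM in MATZ. The groups were far apart at each age, and the highest BETL value of any age lay below the lowest MATZ value. In MATZ the mean was 14.9-fold that in BETL at 8 DAP, 29.5-fold at 14 DAP and 86.2-fold at 20 DAP, with BETL means that rest on few fragments. The log2 differences were −4.08 ± 0.74 SE at 8 DAP (limma adjusted p = 0.00997), −4.70 ± 0.74 at 14 DAP (adjusted p = 0.00489) and −6.06 ± 0.74 at 20 DAP (adjusted p = 0.000888). At 8 DAP the size rested on the BETL pair, at −2.70 without BETL replicate 1, and the call was lost without MATZ replicate 1 (adjusted p = 0.0758) or MATZ replicate 2 (adjusted p = 0.0712). With a pseudocount of 0.1 the calls at 8 DAP (adjusted p = 0.0517) and 14 DAP (adjusted p = 0.0968) were lost.

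SWEET4b was the lowest of the SWEET4 genes in MATZ and low in BETL. It stood at 14.1 and 6.90 FPKM in BETL and 22.1 and 14.998 FPKM in MATZ at 8 DAP, and at 17.7 and 1.52 FPKM in BETL and 12.9 and 17.8 FPKM in MATZ at 14 DAP. At 20 DAP it was listed at 0 in both BETL libraries, against 49.9 and 37.3 FPKM in MATZ. The tissues overlapped at 14 DAP and were apart at 20 DAP. The log2 difference at 20 DAP was −5.47 ± 0.86 SE (limma adjusted p = 0.00352), a size that depends on the pseudocount and ran from −8.76 with 0.1 to −3.27 with 5, called in each case. At 8 DAP the log2 difference was −0.81, with a 95% confidence interval of −2.73 to 1.10 (limma adjusted p = 0.654). At 14 DAP it was −1.23, with an interval of −3.15 to 0.68 (adjusted p = 0.442), and 0.21 without BETL replicate 2.

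The sucrose transporter gene sut1 was higher in BETL, at a lower level than SWEET4c. At 8 DAP it stood at 66.9 and 63.0 FPKM in BETL and at 21.1 and 6.37 FPKM in MATZ. At 14 DAP the values were 219.7 and 246 FPKM in BETL and 102 and 77.6 FPKM in MATZ, and at 20 DAP 156 and 166 FPKM in BETL and 44.4 and 29.0 FPKM in MATZ. The tissues did not overlap at any age. BETL exceeded MATZ 4.74-fold at 8 DAP (log2 difference 2.37 ± 0.46 SE, limma adjusted p = 0.0136) and 4.38-fold at 20 DAP (2.13 ± 0.46, adjusted p = 0.0173), but the 2.59-fold difference at 14 DAP was not called (1.37 ± 0.46, 95% confidence interval 0.34 to 2.41, adjusted p = 0.101).

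The calls of sut1 were sensitive to single libraries. That at 8 DAP was lost without BETL replicate 1 (limma adjusted p = 0.0707), and the log2 difference was 1.58 without MATZ replicate 2. That at 20 DAP was lost without BETL replicate 1 (adjusted p = 0.106), BETL replicate 2 (adjusted p = 0.127) or MATZ replicate 2 (adjusted p = 0.114). The difference at 14 DAP was called without MATZ 8 DAP replicate 1 (adjusted p = 0.022) or replicate 2 (adjusted p = 0.0212), which enter through the shared estimate of the spread.

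Set against the whole table, 2 of the 4 genes were called higher in BETL at 8 DAP (SWEET4c and sut1), where 2.16% of all tested genes were, and 1 was called lower (SWEET4a), where 5.31% were. At 14 DAP 1 was called higher (SWEET4c; 4.63% of all genes) and 1 lower (SWEET4a; 4.38%). At 20 DAP SWEET4c and sut1 were called higher (4.23%) and SWEET4a and SWEET4b lower (6.38%). The median log2 difference of all tested genes was −0.40 at 8 DAP and 0 at both later ages, and the directions of these calls were the same after median-of-ratios scaling or quantile normalization.

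**Figure D2:**
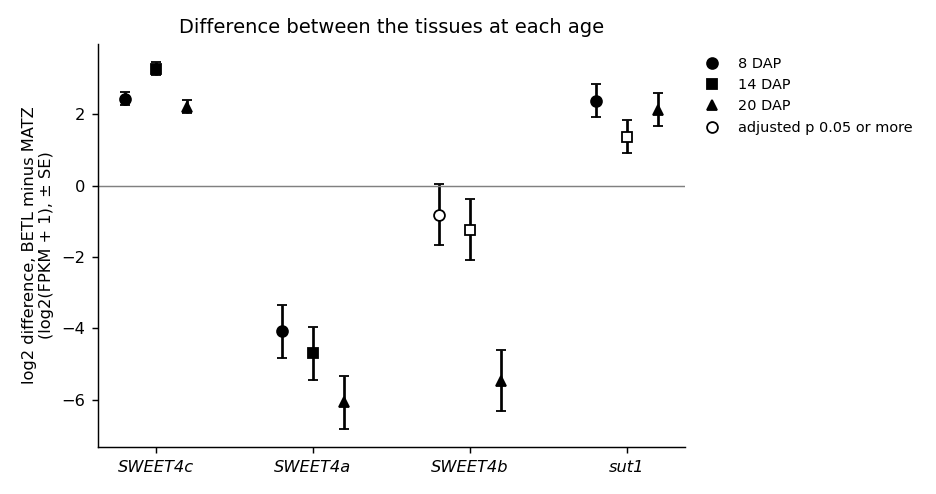
Log2 difference in FPKM + 1, BETL minus MATZ, at 8, 14 and 20 DAP for the 4 genes; points are limma estimates from 12 libraries, bars ± 1 SE, and open symbols mark adjusted p of 0.05 or more. SWEET4c (2.44, 3.27 and 2.21) and sut1 (2.37, 1.37 and 2.13) lie above 0, and SWEET4a (−4.08, −4.70 and −6.06) below 0 at all 3 ages, while SWEET4b is called at 20 DAP alone (−5.47) and sut1 is not called at 14 DAP.

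SWEET4c made up most of the SWEET4 transcripts in both tissues, and SWEET4a had a larger share in MATZ. In BETL libraries SWEET4c was 98.5% to 99.9% of the summed FPKM of the 3 genes. In MATZ libraries it was 61.4% to 77.5%, with SWEET4a at 16.4% to 35.2% and SWEET4b at 2.25% to 9.58%. The MATZ share of SWEET4a was 20.1% and 16.4% (8 DAP), 29.6% and 35.2% (14 DAP), then 25.5% and 24.4% (20 DAP). The 3 genes together averaged 964 ± 6.58 FPKM in BETL and 237 ± 9.22 FPKM in MATZ at 8 DAP, 3507 ± 834 FPKM in BETL and 551 ± 28.2 FPKM in MATZ at 14 DAP, and 3404 ± 7.57 FPKM in BETL and 1038 ± 12.2 FPKM in MATZ at 20 DAP (SD, n = 2 each). Of the 3, SWEET4c was the one with a higher mean in BETL.

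**Figure D3:**
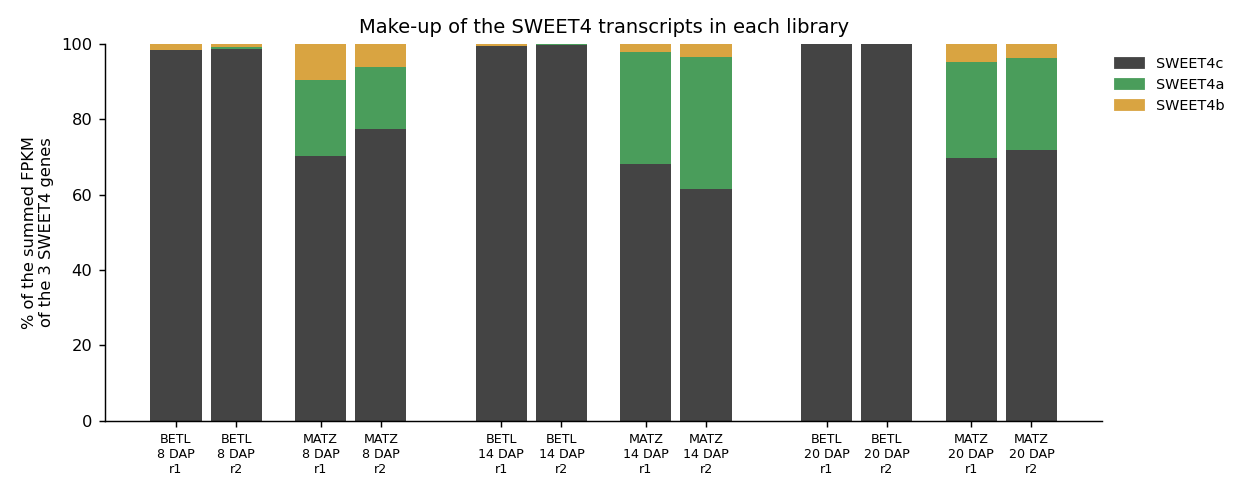
Percent of the summed FPKM of SWEET4c, SWEET4a and SWEET4b held by each gene, stacked from 0 to 100, in each of the 12 libraries. SWEET4c holds 98.5% to 99.9% in BETL and 61.4% to 77.5% in MATZ, where SWEET4a holds 16.4% to 35.2%.

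Pieces of facing tissues can carry cells of the other side, so the same ratios were computed for genes known from one side. The mean of SWEET4c in MATZ was 18.4%, 10.2% and 21.6% of its mean in BETL at 8, 14 and 20 DAP. For the 14 basal endosperm genes the median of this percentage was 3.08% at 8 DAP (range 0 to 16.5%), 12.2% at 14 DAP (0 to 22.8%) and 13.4% at 20 DAP (0 to 41.3%). SWEET4c lay above all 14 of them at 8 DAP, above 4 at 14 DAP and above 12 at 20 DAP. The sut1 percentages were 21.1%, 38.6% and 22.8%, above 14, 14 and 12 of the 14 genes. The 14 genes summed to 45706 and 55009 FPKM in BETL and 2370.1 and 2993 FPKM in MATZ at 8 DAP. At 14 DAP the sums were 49799 and 59337 FPKM in BETL and 7532 and 6833 FPKM in MATZ, and at 20 DAP 93001 and 84442 FPKM in BETL and 11750 and 10316 FPKM in MATZ. One of the basal genes was listed at 0 in both MATZ libraries of each age, tcrr-1 at 8 DAP and bap-3a at 14 and 20 DAP. How much of the SWEET4c or sut1 level in MATZ came from basal endosperm in the pieces was not tested.

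In the other direction, the mean of SWEET4a in BETL was 6.71%, 3.39% and 1.16% of its mean in MATZ at 8, 14 and 20 DAP. For the maternal MADS-box genes with at least 10 FPKM in MATZ the same percentage ran from 19.0% to 63.7% at 8 DAP (4 genes), 12.1% to 47.2% at 14 DAP (5 genes) and 6.23% to 10.4% at 20 DAP (4 genes). SWEET4a lay below each of them at each age. The limit of 10 FPKM left out ZAG5 at 8 and 20 DAP. That gene was at 0 FPKM in BETL against means of 2.80 and 5.94 FPKM in MATZ, so its percentage there was below that of SWEET4a. The 7 listed maternal genes summed to 346 and 313 FPKM in BETL and 617 and 578 FPKM in MATZ at 8 DAP, 141 and 123 FPKM in BETL and 801 and 920.2 FPKM in MATZ at 14 DAP, and 93.2 and 101 FPKM in BETL and 1051 and 1147 FPKM in MATZ at 20 DAP. Both gene models with the symbol zmm2 in small letters were at 0 in all 12 libraries. In such pieces fewer cells of a type and less RNA per cell cannot be told apart.

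**Figure D4:**
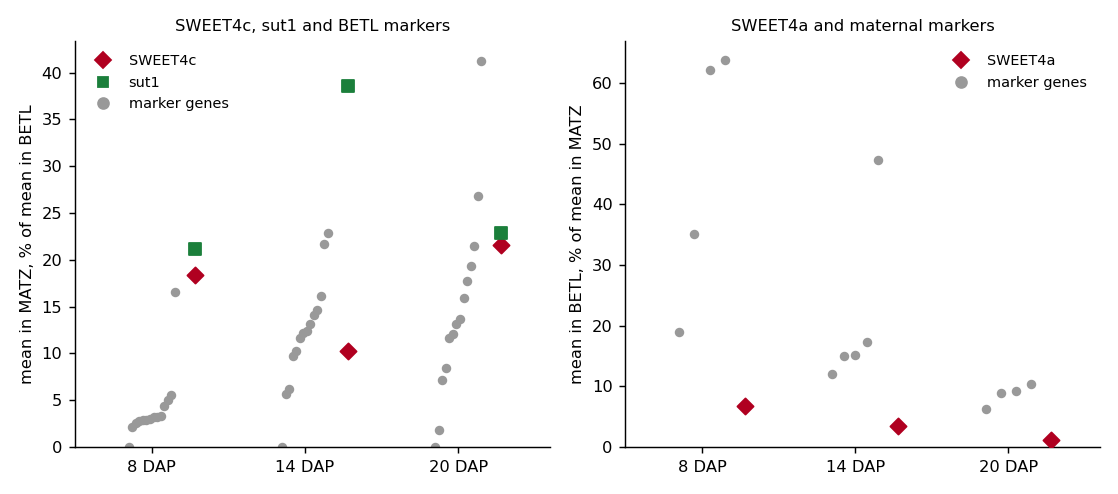
Mean FPKM in MATZ as a percent of that in BETL for SWEET4c, sut1 and 14 basal endosperm genes (left), and mean FPKM in BETL as a percent of that in MATZ for SWEET4a and the maternal MADS-box genes (right), at 8, 14 and 20 DAP; grey points are the marker genes, ordered by value within an age. SWEET4c lies above all 14 basal genes at 8 DAP and above 4 at 14 DAP. Maternal genes are plotted where their mean in MATZ is at least 10 FPKM, and SWEET4a lies below each plotted one at all 3 ages.

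With age SWEET4c rose in both tissues. In BETL 14 DAP exceeded 8 DAP 3.67-fold (log2 difference 1.86 ± 0.18 SE, limma adjusted p = 0.000451), and 20 DAP exceeded 8 DAP 3.58-fold (1.84 ± 0.18, adjusted p = 0.000321). Between 20 and 14 DAP the BETL libraries overlapped, with a log2 difference of −0.02 (95% confidence interval −0.43 to 0.39, adjusted p = 1), whose sign turned to 0.12 with median-of-ratios scaling. In MATZ 14 DAP exceeded 8 DAP 2.04-fold (1.02 ± 0.18, adjusted p = 0.0119), 20 DAP exceeded 14 DAP 2.06-fold (1.04 ± 0.18, adjusted p = 0.027) and 20 DAP exceeded 8 DAP 4.20-fold (2.07 ± 0.18, adjusted p = 0.000265). The MATZ groups did not overlap between ages.

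These age differences stand beside a shift of the whole table. The median log2 difference of all tested genes was 0.75 for 14 against 8 DAP and 0.79 for 20 against 8 DAP in BETL, and 0.14 and 0.33 in MATZ. For 20 against 14 DAP it was 0 in both. With median-of-ratios scaling the SWEET4c differences in BETL were 1.29 for 14 against 8 DAP (limma adjusted p = 0.00522) and 1.41 for 20 against 8 DAP (adjusted p = 0.00273). In MATZ with this scaling they were 0.59 for 14 against 8 DAP (adjusted p = 0.161), 0.94 for 20 against 14 DAP (adjusted p = 0.076) and 1.53 for 20 against 8 DAP (adjusted p = 0.00279), so only the longest MATZ interval kept its call. The MATZ call for 14 against 8 DAP was also lost without MATZ 14 DAP replicate 1 (adjusted p = 0.0718) or MATZ 8 DAP replicate 1 (adjusted p = 0.0597). That for 20 against 14 DAP was lost without any 1 library of BETL at 8 or 20 DAP or of MATZ at 14 or 20 DAP, with adjusted p up to 0.127. The sums of the basal endosperm genes in MATZ, given above, were higher at each later age as well, but the single genes differed. Of the 14 genes, 6 were called higher in MATZ at 14 against 8 DAP, beside 3.11% of all genes. In that comparison 1 was called lower, mn1, whose MATZ means were 1114, 511 and 384 FPKM at 8, 14 and 20 DAP. For 20 against 14 DAP in MATZ 0 of the 14 were called in either direction, with a median log2 difference of 0.29. In BETL the 25 zein gene models, made in the starchy endosperm, summed to 3920 and 3821 FPKM at 14 DAP against 71.7 and 62.7 FPKM at 8 DAP. Of 23 tested 16 were called higher, beside 9.06% of all genes. In MATZ they summed to 42.5 and 73.8 FPKM at 8 DAP, 10267 and 9911 FPKM at 14 DAP and 780.5 and 987 FPKM at 20 DAP. There 18 of 23 were called higher at 14 against 8 DAP, beside 3.11% of all genes. The part of either list in the rise of SWEET4c was not tested.

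The difference between the tissues in these changes was tested directly. For SWEET4c the change between 8 and 14 DAP was larger in BETL than in MATZ by 0.83 ± 0.26 (log2, SE; limma adjusted p = 0.148), and for that between 14 and 20 DAP the difference was −1.06 ± 0.26 (limma adjusted p = 0.192). Neither was called. None of the 4 genes was called in any of the 3 tests of this kind, where 1.27% (14 against 8 DAP), 0.0372% (20 against 14 DAP) and 2.33% (20 against 8 DAP) of all genes were called. For SWEET4b the difference in the change between 8 and 20 DAP was −4.65 ± 1.21 (adjusted p = 0.0861), and it was called without BETL 14 DAP replicate 1 (adjusted p = 0.0246) or replicate 2 (adjusted p = 0.0211) and with the compared groups alone (adjusted p = 0.0365). Its size depended on the pseudocount, at −7.88 with 0.1 (adjusted p = 0.0224) and −2.64 with 5 (adjusted p = 0.119). For SWEET4a this difference was −1.98 (adjusted p = 0.398), and it was called without BETL 8 DAP replicate 1 (−3.36, adjusted p = 0.0423).

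SWEET4a also stood higher at later ages in MATZ, with means of 43.0 ± 4.49, 178 ± 12.6 and 259 ± 10.9 FPKM at 8, 14 and 20 DAP (SD, n = 2 each) and no overlap between ages. The 4.14-fold difference of 14 against 8 DAP (log2 2.03 ± 0.74 SE, limma adjusted p = 0.163) and the 6.03-fold difference of 20 against 8 DAP (2.57 ± 0.74, adjusted p = 0.0696) were not called. The standard error is shared with BETL, where the 8 DAP libraries stood at 0 and 5.77 FPKM. Without BETL 8 DAP replicate 1 both MATZ differences were called (adjusted p = 0.0179 and 0.00649), and likewise without replicate 2 (adjusted p = 0.0207 and 0.00747) or with a pseudocount of 5 (adjusted p = 0.0159 and 0.00369). In BETL no difference of SWEET4a between ages was called, though without BETL 8 DAP replicate 2, which leaves a single 0 at that age, those of 14 against 8 DAP (2.79, adjusted p = 0.00978) and 20 against 8 DAP (1.96, adjusted p = 0.0339) were. For SWEET4b in MATZ, 20 DAP was above both earlier ages in each library, with 43.6 ± 8.89 FPKM against 15.3 ± 3.47 FPKM at 14 DAP and 18.5 ± 4.99 FPKM at 8 DAP, and neither difference was called (adjusted p = 0.54 and 0.462). In BETL SWEET4b fell at 20 DAP against 8 DAP (−3.45 ± 0.86, adjusted p = 0.0307), but this was lost without any 1 library of BETL at 8 or 20 DAP or of MATZ at 8 DAP (adjusted p up to 0.154). The difference of 20 against 14 DAP in BETL (−2.78, adjusted p = 0.269) was called without BETL 14 DAP replicate 2 (−4.22, adjusted p = 0.0267) and with a pseudocount of 0.1 (−5.75, adjusted p = 0.0417), and was −1.28 with a pseudocount of 5 (adjusted p = 0.492) and −1.34 without BETL 14 DAP replicate 1.

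The level of sut1 was highest at 14 DAP in both tissues. It averaged 65.0 ± 2.76, 233 ± 18.6 and 161 ± 7.50 FPKM in BETL at 8, 14 and 20 DAP and 13.7 ± 10.4, 89.9 ± 17.4 and 36.7 ± 10.9 FPKM in MATZ (SD, n = 2 each). It rose at 14 against 8 DAP 3.58-fold in BETL (log2 1.82 ± 0.46 SE, limma adjusted p = 0.0335) and 6.55-fold in MATZ (2.82 ± 0.46, adjusted p = 0.00787). At 20 DAP it stood below 14 DAP in every library, with log2 differences of −0.53 in BETL (95% confidence interval −1.56 to 0.50, adjusted p = 0.919) and −1.29 in MATZ (−2.32 to −0.25, adjusted p = 0.246), neither called. For 20 against 8 DAP the differences were 1.29 in BETL (adjusted p = 0.1) and 1.53 in MATZ (adjusted p = 0.0804). The BETL one was called without MATZ 8 DAP replicate 1 (adjusted p = 0.0223) or replicate 2 (adjusted p = 0.0212), and with library weights (adjusted p = 0.0476) or the compared groups alone (adjusted p = 0.035). The MATZ one rested on the MATZ 8 DAP pair, at 2.32 without replicate 1 (adjusted p = 0.00711) and 0.74 without replicate 2 (adjusted p = 0.267).

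The BETL call of sut1 for 14 against 8 DAP was lost without any 1 of the 6 BETL libraries (limma adjusted p 0.0708 to 0.125) and with median-of-ratios scaling (1.26, adjusted p = 0.103). The MATZ call was lost without MATZ 14 DAP replicate 1 (adjusted p = 0.0548), and its log2 value was 3.61 without MATZ 8 DAP replicate 1 and 2.03 without replicate 2. Transcripts of the zein storage proteins, which the starchy endosperm makes, were also highest at 14 DAP. The 25 zein gene models summed to 71.7 and 62.7 FPKM in BETL and 42.5 and 73.8 FPKM in MATZ at 8 DAP, 3920 and 3821 FPKM in BETL and 10267 and 9911 FPKM in MATZ at 14 DAP, and 1370 and 1346 FPKM in BETL and 780.5 and 987 FPKM in MATZ at 20 DAP. Their part in the sut1 level at 14 DAP was not tested.

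Against all tested genes, SWEET4c and sut1 were the 2 of 4 called higher at 14 against 8 DAP in BETL, where 9.06% of genes were, and in MATZ, where 3.11% were. For 20 against 8 DAP in BETL 1 was called higher (SWEET4c; 8.01%) and 1 lower (SWEET4b; 3.45%), and in MATZ 1 was called higher (SWEET4c; 4.39%). For 20 against 14 DAP none was called in BETL (0.801% of genes in either direction), and SWEET4c was called higher in MATZ (0.772%).

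The order of the 6 groups differed between genes. For SWEET4c it was BETL at 14, 20 and 8 DAP and then MATZ at 20, 14 and 8 DAP, and only the first pair of neighbours overlapped. For sut1 it was BETL at 14 and 20 DAP, MATZ at 14 DAP, BETL at 8 DAP and then MATZ at 20 and 8 DAP, with no overlap between neighbours. For SWEET4a it was MATZ at 20, 14 and 8 DAP and then BETL at 14, 20 and 8 DAP, and only the last pair of neighbours overlapped. For SWEET4b only MATZ at 20 DAP, above all others, and BETL at 20 DAP, below all others, stood clear of their neighbours.

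Among the other genes of sucrose use, the cell wall invertase gene mn1 shared the tissue of SWEET4c but not its change with age. It averaged 6738 ± 689, 3179 ± 616 and 2162 ± 139 FPKM in BETL at 8, 14 and 20 DAP and 1114 ± 60.2, 511 ± 67.2 and 384 ± 50.2 FPKM in MATZ (SD, n = 2 each), and it was called higher in BETL at each age (log2 differences 2.59, 2.63 and 2.49, each ± 0.18 SE). It fell at 14 against 8 DAP in BETL (−1.09 ± 0.18, limma adjusted p = 0.00585) and in MATZ (−1.13 ± 0.18, adjusted p = 0.0072), and at 20 against 8 DAP in BETL (−1.64 ± 0.18, adjusted p = 0.000566) and in MATZ (−1.54 ± 0.18, adjusted p = 0.00128). The ratio of SWEET4c to mn1 FPKM was accordingly 0.131 and 0.153 in the BETL libraries of 8 DAP, 1.13 and 1.06 in those of 14 DAP, then 1.503 and 1.65 in those of 20 DAP. For the MATZ libraries it came to 0.140 and 0.176 (8 DAP), 0.839 and 0.584 (14 DAP), then 1.74 and 2.12 (20 DAP). At 8 DAP mn1 transcripts outnumbered those of SWEET4c per length in all 4 libraries, and at 20 DAP SWEET4c exceeded mn1 in all 4. This ratio is taken within a library, and scaling of libraries does not change it.

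A second cell wall invertase gene, incw1, shared the tissue of SWEET4a. It stood at 2.30 and 11.3 FPKM in BETL and 39.4 and 51.3 FPKM in MATZ at 8 DAP, 9.76 and 10.1 FPKM in BETL and 72.4 and 95.2 FPKM in MATZ at 14 DAP, and 9.85 and 8.29 FPKM in BETL and 64.1 and 48.4 FPKM in MATZ at 20 DAP. It was lower in BETL at each age, by log2 differences of −2.85 ± 0.57 SE at 8 DAP (limma adjusted p = 0.0155), −2.95 ± 0.57 at 14 DAP (adjusted p = 0.013) and −2.50 ± 0.57 at 20 DAP (adjusted p = 0.0221). Of the 5 invertase genes matched by name, 1 was called higher (mn1) and 2 lower in BETL at 8 DAP (incw1 and incw3). At each later age 1 was called higher and 1 lower. Of all tested genes 2.16%, 4.63% and 4.23% were called higher and 5.31%, 4.38% and 6.38% lower at 8, 14 and 20 DAP. The incw3 call rests on values near the floor, 2.27 and 1.65 FPKM in MATZ at 8 DAP and 0 in every other library. The median log2 differences of the 5 invertase genes were −0.94, 0.05 and −0.50, beside −0.40, 0 and 0 over all tested genes.

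The other sucrose transporter genes matched by name, sut2 and sut4, were low and were not called in any of the 12 comparisons. The sut2 means were 11.7, 26.4 and 19.5 FPKM in BETL at 8, 14 and 20 DAP and 7.90, 15.5 and 20.4 FPKM in MATZ. Those of sut4 were 7.35, 7.96 and 5.80 FPKM in BETL and 18.6, 20.4 and 16.3 FPKM in MATZ. The sut4 libraries of BETL lay below those of MATZ at each age. Its log2 differences were −1.23, −1.30 and −1.34 (limma adjusted p = 0.202, 0.152 and 0.135). The sut2 mean in MATZ at 8 DAP joins 15.4 and 0.436 FPKM, and the SE of its tissue differences was 0.90. The level of sut1 was above those of sut2 and sut4 in every library except the 2 of MATZ at 8 DAP, where sut1 stood at 21.1 and 6.37 FPKM and sut4 at 21.8 and 15.4 FPKM.

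By symbol alone, 13 genes were matched to a list of monosaccharide and polyol transporters, which can hold carriers of other substrates or inner membranes. Of these 13 genes, 12 were tested. In BETL 1 was lower at 8 DAP (sfp3, at 16.6 ± 2.70 FPKM in BETL and 78.1 ± 15.2 FPKM in MATZ, limma adjusted p = 0.016), none was called at 14 DAP and 1 was lower at 20 DAP (sfp5, at 5.16 ± 0.83 FPKM in BETL and 61.1 ± 7.47 FPKM in MATZ, adjusted p = 0.00926). Of all genes tested, 5.31% were lower at 8 DAP and 6.38% at 20 DAP, so 1 of 12 is near the background. Their median log2 differences were −0.62, −0.43 and 0.09. With age 1 was called, sfp7, higher at 14 DAP (21.0 ± 3.46 FPKM) than at 8 DAP (1.99 ± 0.84 FPKM) in BETL (adjusted p = 0.0177), where 9.06% of all genes were called higher. The 13 genes together summed to 108 to 176 FPKM in BETL libraries and 188 to 282 FPKM in MATZ libraries, below SWEET4c alone in every BETL library. In MATZ they exceeded SWEET4c at 8 DAP, with 282 and 194 FPKM against 162 and 188 FPKM, and were below it at 14 and 20 DAP. The sums include gpt, at 19.6 to 65.6 FPKM. No SWEET gene beyond the 3 members could be matched by name.

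**Figure D5:**
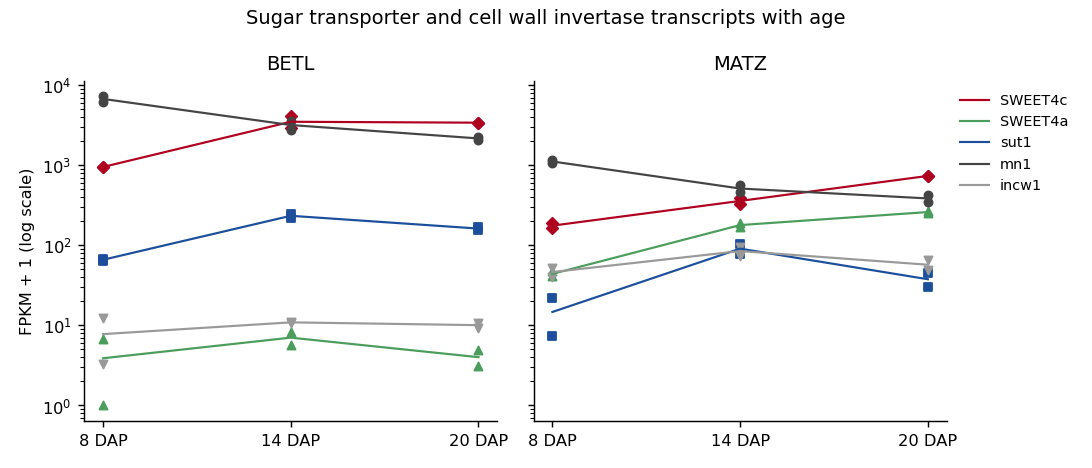
FPKM + 1 on a log axis at 8, 14 and 20 DAP, in BETL (left) and MATZ (right), for SWEET4c, SWEET4a, sut1 and the cell wall invertase genes mn1 and incw1; points are single libraries and lines join the means of 2 libraries. In BETL mn1 falls to 2162 FPKM at 20 DAP while SWEET4c reaches 3401 FPKM, and SWEET4a and incw1 lie higher in MATZ at each age.

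Inside the cell, sucrose synthase splits sucrose by a second route. Of its 3 named genes only sus1 differed between the tissues, at 25.5 ± 2.34 FPKM in BETL and 1.82 ± 0.74 FPKM in MATZ at 8 DAP (log2 difference 3.25 ± 0.45 SE, limma adjusted p = 0.00246), and none was called at 14 or 20 DAP. The 3 named genes of hexose phosphorylation (frk1, frk2 and hex2) were called in none of the 12 comparisons. The most abundant of them, frk2, a fructokinase gene, averaged 15.4, 11.2 and 13.0 FPKM in BETL at 8, 14 and 20 DAP and 34.2, 44.6 and 31.5 FPKM in MATZ. The 3 sucrose synthase genes summed to at most 89.9 FPKM in any library, well below SWEET4c in the same libraries.

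Genes with the most similar profiles were ranked by Pearson's r of log2(FPKM + 1) over the 12 libraries (6 BETL and 6 MATZ), among 14776 tested genes with a mean of at least 10 FPKM in their highest group. The r values are descriptions, since the libraries fall into 2 tissues. Closest to SWEET4c among genes with a descriptive name were bZIP7 (r = 0.981), fps (0.959), the basal endosperm gene betl3 (0.956), the trehalose phosphate phosphatase gene ra3 (0.955) and NRP1 (0.949). The gene bZIP7, named for a bZIP transcription factor, stood at 17.4, 119 and 102 FPKM in BETL at 8, 14 and 20 DAP and at 0, 5.87 and 16.7 FPKM in MATZ. As for SWEET4c, its mean was highest at 14 DAP in BETL and higher at each later age in MATZ.

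The genes listed next were also taken only from those with a descriptive name. Closest to SWEET4a were the cystatin gene cc3 (r = 0.981), the MADS-box gene MADS4 (0.971), the ethylene synthesis gene acco20 (0.965), the invertase gene incw1 (0.961) and the glutamine synthetase gene gln3 (0.955). Of these MADS4 averaged 103, 113 and 96.6 FPKM in BETL and 462, 859 and 1162 FPKM in MATZ at 8, 14 and 20 DAP. For SWEET4b r of the named genes was lower, with smt2 at 0.949 and expB6 and WRKY42 at 0.888 each, followed by CM1 at 0.879 and BM1 at 0.876. For sut1 the leading genes were eno1, an enolase gene (0.936), the sorbitol dehydrogenase gene sdh1 (0.933), per-1 (0.927), ra3 (0.926) and hag (0.920). Over all compared genes, named or not, profiles with r above 0.95 numbered 28 for SWEET4c, 26 for SWEET4a, 1 for SWEET4b and 5 for sut1. Among the 4 genes themselves r was 0.825 between SWEET4c and sut1, 0.630 between SWEET4a and SWEET4b, and −0.619 between SWEET4c and SWEET4a.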

How the data were processed

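RNA-seq of 12 libraries (BETL and MATZ at 8, 14 and 20 DAP, 2 each) was analysed from 1 table of FPKM values that the authors deposited, per the file headers, 1 column per library. Reads went through TopHat2, Bowtie2 and Cufflinks, per the submitters' processing notes; for these tools no version or setting, and for the reads no genome build, is given in the sources used here. Depth is not stated.

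FPKM values were not rescaled. Gene models reaching 1 FPKM in 2 or more libraries (24213 of 39423) were fitted on log2(FPKM + 1), which understates the change of low genes, in R 4.3.3 by limma 3.58.1 (functions lmFit, contrasts.fit and eBayes, mean trend): 6 group means, 6 residual degrees of freedom and 3.79 prior ones, 12 comparisons, Benjamini-Hochberg over the tested genes, calls at adjusted p under 0.05. The code was tested on simulated data. Gene names came from RefSeq (Zm-B73-REFERENCE-NAM-5.0), and no coordinates were taken from it (18771 of 39423 identifiers matched). Python 3.11.15 with pandas 2.3.3, numpy 2.4.6 and matplotlib 3.10.9 made the tables and plots.

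The 4 genes, the gene lists and the tests were chosen with earlier results of these data known. Besides the 4 genes, those named are, per gene, the 5 most similar profiles with a descriptive name, up to 4 genes per pathway list and up to 3 per marker list, by level; tcrr-1, bap-3a, sfp7, incw3 and the hexose genes fall in short counts. Lists not described further were aleurone genes (at most 11.0 FPKM in sum), embryo and embryo surrounding genes (790.3 to 2778 FPKM in BETL, 26.5 to 455 FPKM in MATZ) and 1 vascular gene, sxd1 (at most 11.5 FPKM). Same-numbered replicates did not deviate together: over 15 pairs of groups r ran from −0.0168 to 0.0164. Replicates of a group correlated with r of 0.789 to 0.912 across genes. Alternatives were pseudocounts of 0.1 and 5, no filter, a filter at 5 FPKM, quantile normalization, median-of-ratios scaling, a replicate block, the compared groups alone, no mean trend, library weights, the summed SWEET4 genes and leaving out each library.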

Additional observations from a re-analysis of the deposited data

How the results depend on the processing

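The directions and calls of SWEET4a and SWEET4b at 20 DAP and of SWEET4c at 20 DAP (BETL against MATZ) and in BETL for 20 against 8 DAP held under every alternative run. Other calls ended as follows, with log2 differences and limma adjusted p. With a pseudocount of 0.1, SWEET4a was at −5.81 (0.0517) at 8 DAP and −4.89 (0.0968) at 14 DAP, sut1 in BETL for 14 against 8 DAP at 1.84 (0.0538), and the tissue difference in the SWEET4a change between 8 and 14 DAP turned to 0.91. With a pseudocount of 5, SWEET4b in BETL for 20 against 8 DAP was at −1.59 (0.091), and 3 uncalled values were called: sut1 at 14 DAP (1.34, 0.0463), which quantile normalization also called (1.75, 0.0317), and SWEET4a in MATZ for 14 against 8 DAP (1.93, 0.0159) and 20 against 8 DAP (2.46, 0.00369). That normalization turned the uncalled values of SWEET4c in BETL for 20 against 14 DAP to 0.015, of SWEET4a in BETL for 20 against 8 DAP to −0.59 and of sut1 in the tissue difference for 20 against 8 DAP to 0.46. Median-of-ratios scaling gave sut1 1.26 (0.103) in BETL for 14 against 8 DAP and SWEET4c 0.12 in BETL for 20 against 14 DAP, and in MATZ 0.59 (0.161) for 14 against 8 DAP and 0.94 (0.076) for 20 against 14 DAP.

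Settings that leave the value as it is but change the spread or the number of genes also ended calls. For sut1 at 20 DAP (2.13) adjusted p was 0.0604 with no filter and 0.0502 with no mean trend, and for sut1 in BETL for 14 against 8 DAP (1.82) 0.0942 and 0.0727. For SWEET4c in MATZ it was 0.157 and 0.204 for 14 against 8 DAP (1.02), and 0.276 and 0.31 for 20 against 14 DAP (1.04). For SWEET4b in BETL for 20 against 8 DAP (−3.45) it was 0.08 with no filter. With the compared groups alone, which leaves 2 residual degrees of freedom, at 8 DAP SWEET4c (2.44), SWEET4a (−4.08) and sut1 (2.37) had 0.109, 0.244 and 0.237, and at 14 DAP SWEET4c (3.27) and SWEET4a (−4.70) had 0.107 and 0.105. In BETL SWEET4c (1.86) and sut1 (1.82) for 14 against 8 DAP had 0.124 and 0.121, and SWEET4b for 20 against 8 DAP (−3.45) had 0.0507. In MATZ SWEET4c had 0.167 (1.02), 0.291 (1.04) and 0.107 (2.07) for the 3 pairs of ages, and sut1 for 14 against 8 DAP 0.205 (2.82). No gene of the table was called there at 8 or 14 DAP.

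Leaving out each library gave these ranges for BETL against MATZ at 8, 14 and 20 DAP: SWEET4c 2.33 to 2.55, 3.03 to 3.51 and 2.20 to 2.22, SWEET4a −5.46 to −2.70, −4.98 to −4.41 and −6.40 to −5.72, SWEET4b −1.28 to −0.35, −2.68 to 0.21 and −5.67 to −5.26, and sut1 1.58 to 3.16, 1.18 to 1.57 and 1.83 to 2.43. For later against earlier ages, SWEET4c ran from 1.61 to 2.10 (14 against 8 DAP), −0.26 to 0.23 (20 against 14 DAP) and 1.83 to 1.85 (20 against 8 DAP) in BETL and 0.90 to 1.15, 0.92 to 1.17 and 1.96 to 2.18 in MATZ. The ranges of sut1 for 14 against 8 DAP were 1.74 to 1.90 in BETL and 2.03 to 3.61 in MATZ, and SWEET4b in BETL for 20 against 8 DAP ran from −3.92 to −2.98. Uncalled values that changed sign ran from −2.11 to 0.77 (SWEET4b, BETL, 14 against 8 DAP), −0.80 to 1.96 (SWEET4a, BETL, 20 against 8 DAP) and −0.52 to 0.012 (SWEET4b, MATZ, 14 against 8 DAP). In the tissue differences they ran from −1.86 to 1.03 (SWEET4b, 14 against 8 DAP), −2.0001 to 0.76 (SWEET4a, 14 against 8 DAP) and −1.03 to 0.55 (sut1, 20 against 8 DAP).

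Whether libraries with the same replicate number are pairs is not stated in the labels. A replicate block changed no call of the 4 genes. With it SWEET4c had 2.44 (limma adjusted p = 0.000157), 3.27 (0.000112) and 2.21 (0.000253) at 8, 14 and 20 DAP. The 3 SWEET4 genes summed gave 2.02, 2.65 and 1.71, each called. Genes called over the whole table numbered 1807, 2180 and 2567 at 8, 14 and 20 DAP, and over the alternatives 0 to 1876, 0 to 2824 and 1104 to 3896. With 2 libraries per group and an unknown depth, values of a few FPKM (SWEET4a and SWEET4b in BETL, and sut1 in MATZ at 8 DAP in replicate 2) are the least certain. The cause of these changes was not tested, apart from what each setting's construction shows.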

Other observations

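Outside the transporters, the sucrose synthase gene sh1 was highest in MATZ at 14 DAP. This gene, whose enzyme feeds sucrose into starch synthesis in the endosperm, stood at 7.97 and 1.36 FPKM in MATZ at 8 DAP, 45.1 and 35.5 FPKM at 14 DAP and 0 and 0.9996 FPKM at 20 DAP. It rose at 14 against 8 DAP (log2 3.15 ± 0.76 SE, limma adjusted p = 0.0422) and fell at 20 against 14 DAP (−4.86 ± 0.76, adjusted p = 0.0171). In BETL it stood at 2.24 and 3.26 FPKM at 8 DAP, 19.0 and 15.4 FPKM at 14 DAP and 4.40 and 6.003 FPKM at 20 DAP, with no call. The related gene sus1 rose in MATZ at 14 against 8 DAP (2.86 ± 0.45, adjusted p = 0.00658) and at 20 against 8 DAP (2.71 ± 0.45, adjusted p = 0.00727). The zein sums given with sut1 were highest in MATZ at the same age as sh1, and their part in its level was not tested.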
